A study of Mus musculus with 12 samples.

Results

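The 10 genes described here are Tfap2b, Tfap2d, Meis1, Pax3, Pax7, Ebf1, Ebf2, Ebf3, Bhlhe23 and Bhlhe22, a set of transcription factors known from the developing pretectum and midbrain. They were chosen by name with earlier results of these data known. Every probe annotated with one of them under a current or earlier symbol was taken. That gave 20 probes of the 45281 on chip 2, for 10 of 29022 gene names. Both chips carry 16 of these probes, out of 31448 that could be compared between chips. The other 4, of which 3 were for Tfap2b and 1 for Ebf2, are on chip 2 only.

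The study asked, per its title, what the homeobox gene Gbx2 does for the identity of thalamic neurons. Illumina bead arrays were hybridised with RNA of diencephalon regions dissected from CD1 mice at E12.5. Such arrays report the brightness of beads carrying a 50-base probe. The groups were Gbx2 knockout (KO) thalamus with 4 arrays, wild-type (WT) epithalamus with 1 array, WT prethalamus with 1 array and WT thalamus with 4 arrays. KO and WT thalamus replicates 1 and 2 and the 2 other regions lie on chip 1, and replicates 3 and 4 of each genotype on chip 2. A replicate 5 of each genotype was set aside by the submitters as an outlier and enters no comparison below except as a named alternative. The labels name neither the knockout allele nor any Cre driver, and do not say whether an array holds 1 embryo or several. The p-values therefore cover the variation among these arrays only, which may be technical. The tissue field reads thalamus for every array, and the 2 regions were identified by their description.

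The pretectum lies between thalamus and midbrain, and the epithalamus, which forms the habenula and pineal gland, lies dorsal to the thalamus. AP-2 factors (Tfap2), paired-box factors (Pax3, Pax7), the homeodomain cofactor Meis1, the early B-cell factors (Ebf) and the basic helix-loop-helix factors Bhlhe22 and Bhlhe23 bind DNA and set regional or neuronal identity in several parts of the embryo. Ebf genes are known for their part in neuronal differentiation and migration, and Pax3 and Pax7 for patterning the dorsal neural tube.

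Probes of 1 gene gave unlike signals for Tfap2b and Meis1, and matching ones for Ebf3, so the start of each of these probes is shown, as decoded from the identifiers in the deposited tables. Each line holds the first 30 of 50 bases, 5′ to 3′, in lower case throughout.
Tfap2b probe 1: ctcaccgaggcgctcaaaggcatggacaag
Tfap2b probe 2: ccagatgttagtccacacctattcatccat
Tfap2b probe 3: gctgttatggtattgggtagaaattggttt
Meis1 probe 1: tcctacagcccagagctgctacaggggtca
Meis1 probe 2: cagcaaagcattggtcatgtgtgtattttt
Meis1 probe 3: ggccagccactccactgttttcctctgaaa
Ebf3 probe 1: gcaagtgtcctcatgcccgcacccggtttg
Ebf3 probe 2: gacacttcctttcccatgaacacttgcagt
No pair of member probes shared a stretch of 12 bases. Where in its transcript each probe lies was not analysed here.

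Tfap2d and Tfap2b are neighbours on chromosome 1, with 0 annotated genes between them in the RefSeq gene table, and both were higher on the epithalamus array than on the WT thalamus arrays of chip 1. Their promoters are shown for that reason, together with that of Ebf3, the only member promoter that held any of the motifs searched. Each line holds the 250 bases before an annotated start from RefSeq (GRCm38.p6, strand in brackets), and the capitals mark motif matches.
Tfap2b chr1:19211804-19212053 (+): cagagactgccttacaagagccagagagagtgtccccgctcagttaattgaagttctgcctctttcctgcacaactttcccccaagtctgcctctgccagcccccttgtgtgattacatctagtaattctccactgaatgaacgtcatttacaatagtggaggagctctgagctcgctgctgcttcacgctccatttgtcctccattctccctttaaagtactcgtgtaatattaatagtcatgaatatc
Tfap2d chr1:19102772-19103021 (+): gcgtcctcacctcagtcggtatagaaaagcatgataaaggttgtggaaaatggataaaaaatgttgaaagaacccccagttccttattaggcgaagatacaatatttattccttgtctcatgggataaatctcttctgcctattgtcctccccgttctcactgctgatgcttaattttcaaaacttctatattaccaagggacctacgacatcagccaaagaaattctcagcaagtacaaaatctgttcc
Ebf3 chr7:137314446-137314695 (-): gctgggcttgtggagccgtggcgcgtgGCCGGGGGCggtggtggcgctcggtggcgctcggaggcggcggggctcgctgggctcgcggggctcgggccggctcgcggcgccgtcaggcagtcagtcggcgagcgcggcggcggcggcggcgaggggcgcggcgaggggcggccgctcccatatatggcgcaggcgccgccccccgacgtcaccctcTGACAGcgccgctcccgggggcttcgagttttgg
RefSeq gave 10 promoters for 7 of the 10 members, and none was at hand for Pax3, Ebf2 and Bhlhe22. On both strands, the AP-2 motif GCCNNNGGC was found in 13.7% of 32851 promoters of the same length and the Meis motif TGACAG in 15.9%. Among the 10 member promoters each was found in 1, that of Ebf3, whose window was 80.0% G and C against a median of 52.4% over all promoters. A palindromic Ebf motif, the helix-loop-helix motif CATATG and the homeodomain motif TAATTA were found in 0.8%, 3.5% and 4.8% of all promoters and in none of the 10. A match is a description of the letters only.

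Depth on a bead array means how many probes rise above background. A probe was called detected on an array at a detection p under 0.05, which held for 30.73% to 36.04% of probes on the arrays of chip 1 and 44.84% to 46.39% on those of chip 2. Levels below are log2 intensities after background correction and quantile normalization within each chip, so levels are not compared between chips. Gbx2 read 13.04, 12.77, 13.76 and 14.05 on KO replicates 1 to 4, against 13.73, 13.30, 15.94 and 15.73 on WT replicates 1 to 4. It was lower in KO by 1.27 (SE 0.27, n = 4 per genotype, limma adjusted p = 0.0408). Whether its probe lies in the deleted part of Gbx2 was not analysed here, so this difference does not by itself check the knockout label. The array number limits the precision of every value.

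The label of the epithalamus array was set against marker genes. The dorsal midline homeobox gene Msx1 was detected there at 7.20, against 4.81 and 4.89 on WT thalamus replicates 1 and 2, where it was not detected. It was the 1 gene of 4 roof plate and midline markers compared that was higher there by 1 or more in log2 than on both WT arrays. Of 5 habenular markers compared, 1 was higher by that size (Nr4a2, a nuclear receptor, at 9.66 against 8.05 and 7.19) and 2 were lower (Etv1 and Gng8). Pou4f1, a defining factor of habenular neurons, was detected on none of the 10 arrays. Most midline and habenular markers were thus not higher there, and the array is called here by its label only. Of 6 caudal thalamic markers compared, 3 were lower there by 1 or more than on both WT arrays (Gbx2, Ntng1 and Rora) and none was higher. Gbx2 read 6.35 there, against 13.73 and 13.30 on WT thalamus replicates 1 and 2. On the prethalamus array 5 of 6 prethalamic and GABAergic markers were higher and none was lower than on both WT thalamus arrays. Over all 11424 genes, 0.814% were higher and 0.604% lower by this size on the epithalamus array. For the prethalamus array the shares were 1.02% higher and 0.832% lower.

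Most members read higher on the epithalamus array than on the WT thalamus arrays. Against both WT thalamus arrays of chip 1, 8 of the 9 members that could be compared were higher by 1 or more in log2, where 0.814% of 11424 genes were. None of the 9 was lower, where 0.604% of all genes were. The members were chosen with earlier results of these data known, so these shares describe the set and are not independent support. Genes entered when detected on any array of chip 1, and Tfap2b and Pax3 entered through the epithalamus array alone. With no filter on detection the count was 8 of 10 members, where 0.398% of 23388 genes were higher. Each region has 1 array, so there is no replicate check and no test for it. Pax7 was detected on no array and was left out of the 9. In bulk tissue, fewer cells of a type and less RNA per cell cannot be told apart.

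**Figure D1:**
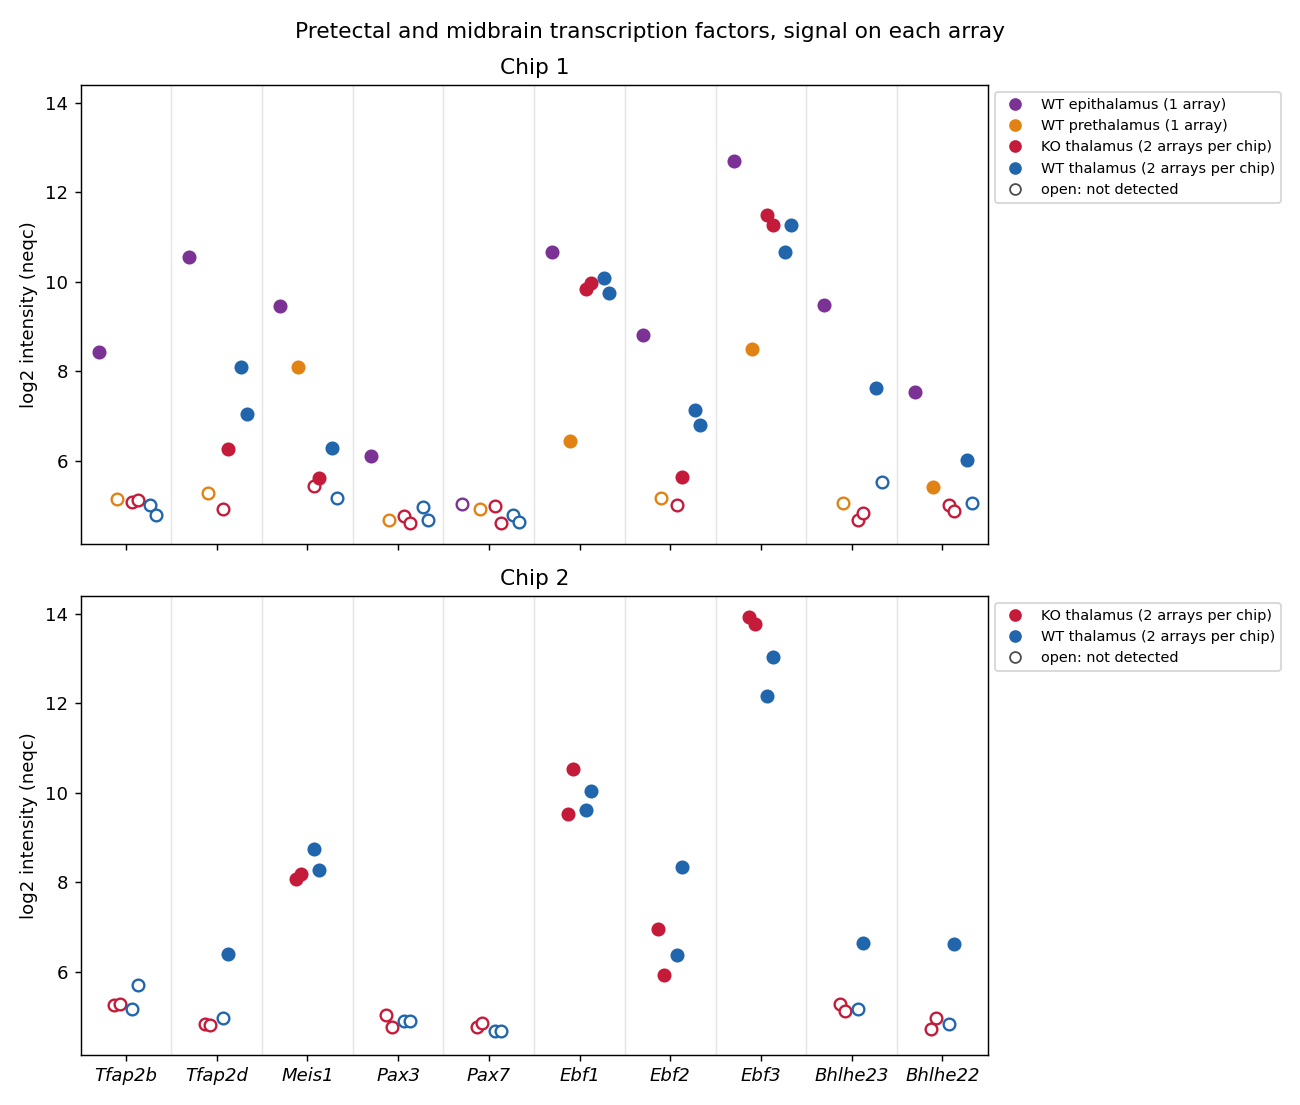
Log2 intensity of each member on each array, 1 probe per gene, with chip 1 above and chip 2 below and 1 point per array. Filled points were detected and open points were not. On chip 1 the epithalamus point is the highest for all 10 genes, and Pax7 is open throughout.

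Tfap2b, an AP-2 factor that in mouse is needed in kidney and neural crest derivatives, was detected on the epithalamus array only, of the 10 arrays compared. Its probe 1 read 8.43 there and 5.13 on the prethalamus array, against 5.01 and 4.79 on WT thalamus replicates 1 and 2. Detection failed on the prethalamus and on all 8 KO and WT thalamus arrays, so the thalamic side is a bound. The epithalamus signal was at least 7.69-fold higher than WT thalamus and at least 8.55-fold higher than prethalamus. These bounds hold for the background-corrected values. The smaller of its differences from the undetected WT signals was 3.42 there, against 1.88 without background correction and 2.63 in the deposited log2 values. Raw intensities of this probe were 443.5 on the epithalamus array and 118.8 on the prethalamus array, against 126.7 and 124.6 on WT thalamus replicates 1 and 2.

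The other Tfap2b probes told less. Probe 3 was detected on the epithalamus array at 6.0, against 4.97 and 4.72 on WT replicates 1 and 2, where it was not. Probe 2 and the 3 probes on chip 2 only were detected on no array at all. On the thalamus arrays probe 1 of Tfap2b lay at 5.09, 5.13, 5.26 and 5.28 on KO replicates 1 to 4, against 5.01, 4.79, 5.17 and 5.71 on WT replicates 1 to 4. These are signals below detection, and no genotype difference was tested for Tfap2b.

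Tfap2d, the AP-2 factor next to it, known in mouse for its expression in the developing midbrain, was measured in thalamus as well. It read 10.56 on the epithalamus array and 5.28 on the prethalamus array, against 8.10 and 7.05 on WT thalamus replicates 1 and 2. Epithalamus was highest and prethalamus lowest, with the prethalamus signal not detected. The epithalamus array was higher than the WT arrays by 2.45 and 3.50, and at least 37.2-fold higher than the prethalamus array. WT thalamus was at least 4.73-fold higher than prethalamus.

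Meis1, a TALE homeodomain factor that acts with Pbx and Hox proteins, was the member that was high in both regions flanking the thalamus. Its probe 2 read 9.46 on the epithalamus array and 8.10 on the prethalamus array, against 6.27 and 5.17 on WT thalamus replicates 1 and 2, of which the second was not detected. The epithalamus differences from WT were 3.19 and 4.29 and the prethalamus differences 1.83 and 2.93. Meis1 was the 1 member of 9 higher by 1 or more on the prethalamus array than on both WT arrays, where 1.02% of all genes were.

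Probe 3 of Meis1 gave the same order at lower levels. It read 7.51 on the epithalamus array and 6.28 on the prethalamus array, against 5.0 and 4.85 on WT thalamus replicates 1 and 2, and it was detected on neither WT array. Probe 1 was detected on no array, with 5.05 on the epithalamus array. The 3 probes of Meis1 thus agree in order only where they were detected.

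Pax3 and Pax7, paired-box factors of the dorsal neural tube, were at or below detection. Pax3 was detected on the epithalamus array only, at 6.10, with 4.68 on the prethalamus array and 4.96 and 4.67 on WT thalamus replicates 1 and 2. That made it at least 1.53-fold higher on the epithalamus array than in WT thalamus and at least 1.70-fold higher than on the prethalamus array. As bounds these fall short of the size counted. Pax3 counted as higher by its undetected WT signals, and it no longer did without background correction (0.49) or in the deposited log2 values (0.85). Pax7 read 5.04 on the epithalamus array and 4.93 on the prethalamus array, against 4.78 and 4.63 on WT thalamus replicates 1 and 2, none of them detected. Its 1 probe gives no measured level anywhere in these data.

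The Ebf genes were detected in thalamus and low in prethalamus. Ebf3 read 12.69 on the epithalamus array and 8.49 on the prethalamus array, against 10.65 and 11.27 on WT thalamus replicates 1 and 2. Its probe 2 read 9.93 on the epithalamus array and 5.55 on the prethalamus array, against 8.30 and 7.94 on the same WT arrays. The probes gave the same order of the regions, epithalamus above thalamus above prethalamus.

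Ebf2 followed that order at lower levels. It read 8.80 on the epithalamus array and 5.16 on the prethalamus array, against 7.13 and 6.80 on WT thalamus replicates 1 and 2. Prethalamus was not detected, and the epithalamus array was at least 11-fold higher than it and WT thalamus at least 3.09-fold higher.

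Ebf1 differed from the other members in its epithalamus value, which lay nearer to thalamus. It read 10.66 on the epithalamus array and 6.43 on the prethalamus array, against 10.09 and 9.74 on WT thalamus replicates 1 and 2. The epithalamus differences were 0.57 and 0.92, both under the size counted, while prethalamus was lower by 3.66 and 3.30. Probe 1 of Ebf1 read 7.72 on the epithalamus array and 4.91 on the prethalamus array, against 6.86 and 7.21 on WT replicates 1 and 2, and was not detected in prethalamus. Both Ebf1 probes therefore stayed under 1 in log2 between epithalamus and thalamus.

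Bhlhe23, a helix-loop-helix repressor needed for rod bipolar cells of the mouse retina, varied between the WT thalamus arrays. It read 9.48 on the epithalamus array and 5.07 on the prethalamus array, against 7.63 and 5.53 on WT thalamus replicates 1 and 2, with only the first of these detected. The epithalamus array was higher than the WT arrays by 1.85 and 3.95, and at least 17.6-fold higher than the prethalamus array, where Bhlhe23 was not detected. The WT arrays themselves lay 2.10 apart.

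Bhlhe22, a related repressor of retinal and spinal interneurons in mouse, read 7.54 on the epithalamus array and 5.40 on the prethalamus array, against 6.01 and 5.05 on WT thalamus replicates 1 and 2. It was detected on the epithalamus, prethalamus and first WT array. The epithalamus differences were 1.54 and 2.49, and the WT arrays lay 0.95 apart. Without background correction the smaller difference was 0.82, under the size counted.

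**Figure D2:**
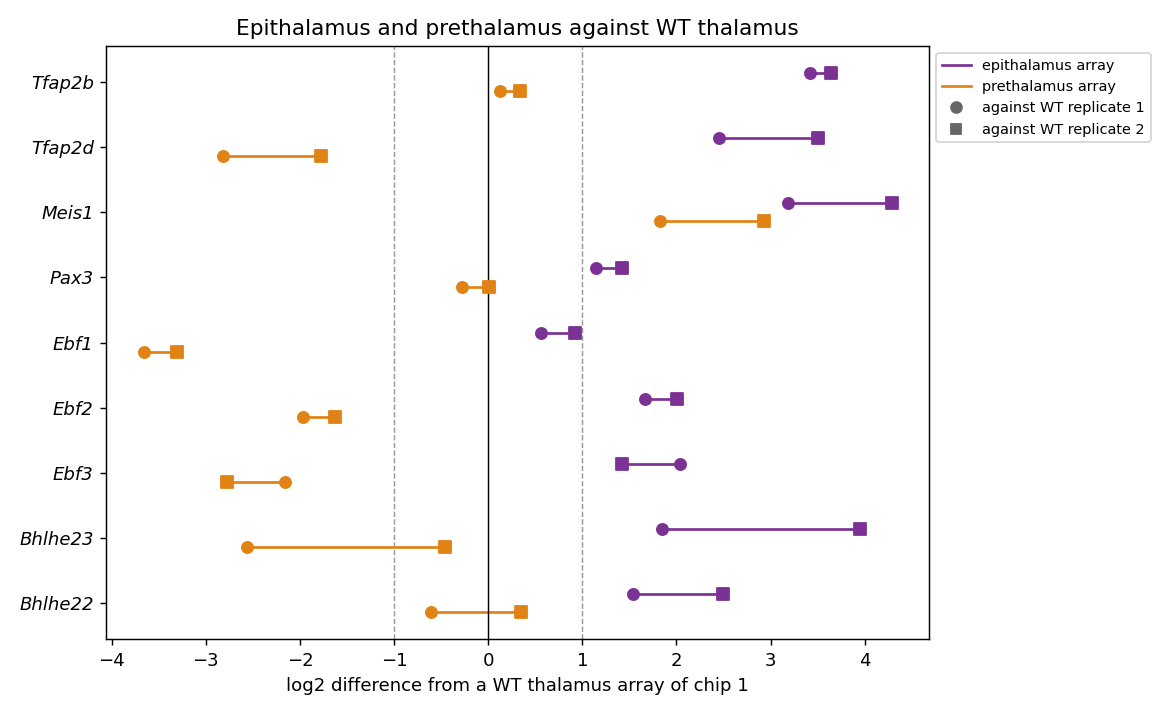
Log2 difference of the epithalamus and prethalamus arrays from each WT thalamus array of chip 1, for the 9 members compared, with circles for WT replicate 1, squares for WT replicate 2 and dashed lines at a difference of 1 in either direction. Signals not detected are drawn as measured. Both epithalamus points lie beyond 1 for 8 genes and below it for Ebf1, and the prethalamus points are beyond 1 above zero for Meis1 only.

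Counted by probe, 13 member probes could be compared and 11 were higher by 1 or more on the epithalamus array than on both WT arrays, where 0.771% of 14268 probes were. The exceptions were both Ebf1 probes. The Pax3 probe and both Tfap2b probes compared entered through the epithalamus array alone. The probes left out, of Tfap2b, Meis1 and Pax7, were detected on no array of chip 1. Of the 16 probes on both chips, 13 were detected on the epithalamus array and 6 on the prethalamus array.

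**Figure D3:**
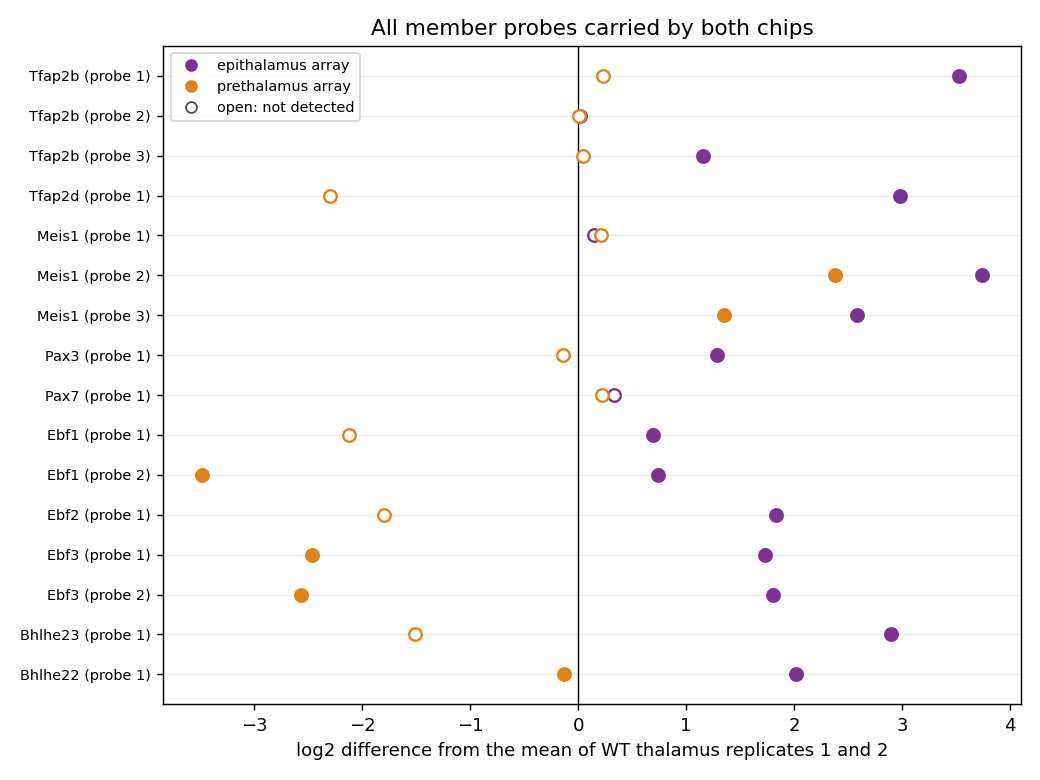
Log2 difference of the epithalamus and prethalamus arrays from the mean of WT thalamus replicates 1 and 2, for all 16 member probes on both chips, with open points where the region's signal was not detected. Both probes of Ebf3 fall close together within each region. Those of Ebf1 do so for epithalamus and lie apart for prethalamus, where probe 1 was not detected, while Tfap2b and Meis1 each have 1 probe near zero that was detected in neither region.

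Between the regions, all 9 members were higher by 1 or more on the epithalamus array than on the prethalamus array, where 1.77% of 11424 genes were. None was lower by that size, where 1.72% of all genes were. With no filter on detection, 9 of 10 members were higher by 1 or more on the epithalamus array than on the prethalamus array, where 0.864% of 23388 genes were. Ebf1, Ebf3, Bhlhe22 and Meis1 were detected in both regions, and their differences were 4.23, 4.20, 2.14 and 1.36. The other 5 were not detected on the prethalamus array and have the bounds given above, of which that of Pax3 falls short of the size counted. On the prethalamus array 4 of 9 members, Tfap2d, Ebf1, Ebf2 and Ebf3, were lower by 1 or more than on both WT thalamus arrays, where 0.832% of all genes were. The prethalamus count depended on the processing: without background correction, or when set against all 4 thalamus arrays of chip 1, it was 2 (Ebf1 and Ebf3), and without WT replicate 2 it was 5, with Bhlhe23 added.

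Other factors of pretectum and midbrain, listed by name, gave 11 genes that could be compared. Of these, 4 were higher by 1 or more on the epithalamus array than on both WT thalamus arrays, where 0.814% of 11424 genes were. They were Gata3, Tal2 and Helt, known for GABAergic neurons of the midbrain, and Dmbx1, a homeobox gene of the midbrain. Tal2 read 11.12 on the epithalamus array and 7.54 on the prethalamus array, against 8.13 and 9.32 on WT thalamus replicates 1 and 2. Dmbx1 and Helt, at 6.86 and 6.77, were detected on the epithalamus array and on neither the prethalamus nor the WT thalamus arrays of chip 1.

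**Figure D4:**
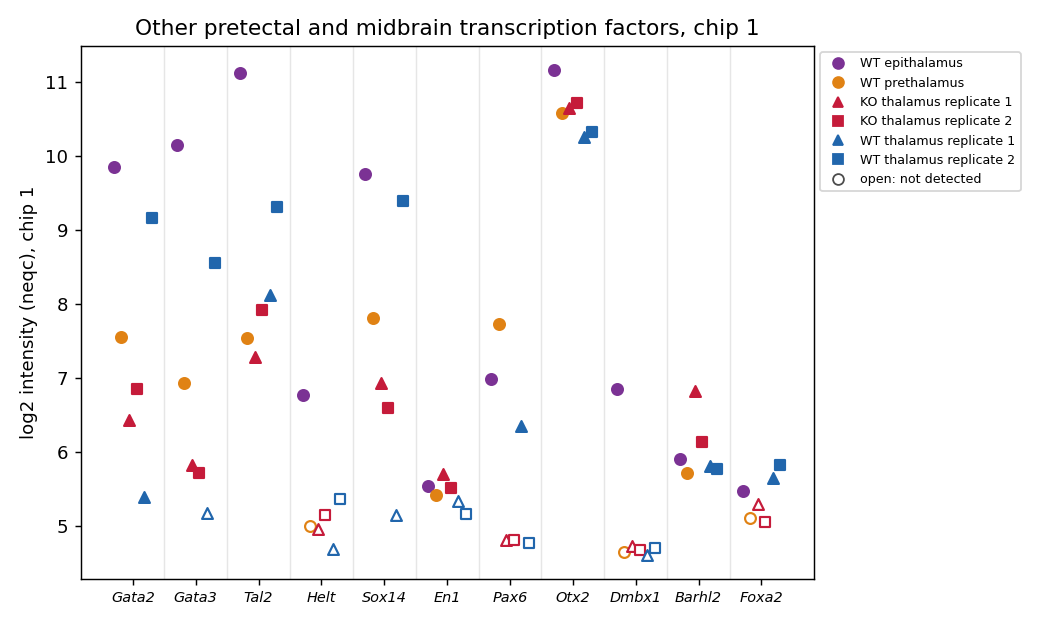
Log2 intensity of the 11 other pretectal and midbrain factors compared on chip 1, 1 point per array, with open points where a signal was not detected. Gata2, Gata3 and Sox14 are high on the epithalamus array and WT thalamus replicate 2 and low on WT replicate 1, and Dmbx1 and Helt are filled for epithalamus and open for both WT arrays.

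Gata2, Gata3 and Sox14 were uneven between the WT thalamus arrays. Gata3 read 10.15 on the epithalamus array and 6.94 on the prethalamus array, against 5.18 and 8.56 on WT replicates 1 and 2. For Gata2 the epithalamus array read 9.86, against 5.39 and 9.16 on WT replicates 1 and 2. Sox14, a factor of rostral thalamic and pretectal interneurons, read 9.76, against 5.16 and 9.39. These genes were high on WT replicate 2, while Tfap2d, Meis1, Bhlhe23 and Bhlhe22 were higher on WT replicate 1. The sets did not divide cleanly. WT replicate 1 minus replicate 2 was -0.61 for Ebf3, against 0.35 for Ebf1 and 0.34 for Ebf2. Pax6, of the other list, was higher on WT replicate 1 by 1.58.

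Markers of other cells were set beside the epithalamus result. Of 6 prethalamic and GABAergic genes compared, 2 were higher by 1 or more on the epithalamus array, where 0.814% of 11424 genes were. They were Gad1 at 10.15 and Slc32a1 at 9.90, both of the GABA pathway. The list's mean log2 level was 6.73 on the epithalamus array and 8.90 on the prethalamus array, against 5.27 and 6.26 on WT replicates 1 and 2. The neural crest also expresses Tfap2b and Pax3. Of 8 neural crest and mesenchyme genes, 1 was detected on the epithalamus array, with a mean of 4.94, against 4.98 and 4.93 on the WT arrays, and Sox10 and Foxd3 were detected on no array. Tfap2a, an AP-2 relative of Tfap2b, was detected on the epithalamus array at 5.88, against undetected signals of 5.29 and 5.46 on the WT arrays. The part of GABAergic or neural crest cells in the members' result was not tested.

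The families of the members were looked at in the same way. Among AP-2 relatives and cofactors, 1 of 4 compared was higher on the epithalamus array, where 0.814% of 11424 genes were. It was Kctd1, an inhibitor of AP-2 factors, at 9.32 against 8.24 and 8.06 on WT replicates 1 and 2. Of 8 other TALE genes none was higher on the epithalamus array. On the prethalamus array 1 was higher, where 1.02% of all genes were. That gene was Meis2, which read 11.42 on the prethalamus array and 5.90 on the epithalamus array, against 5.21 and 5.31 on WT thalamus replicates 1 and 2. Of 3 Ebf relatives and partners (Ebf4, Zfp423 and Zfp521) none was higher or lower by 1 or more on either region's array than on both WT arrays.

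KO and WT thalamus were compared next, over replicates 1 to 4 with chip as a block. These comparisons share WT replicates 1 and 2 with those of the regions, so the values are not independent of them. Genes entered when detected on 4 or more of the 8 arrays, which 5 members did: Tfap2d, Meis1, Ebf1, Ebf2 and Ebf3. None of the 5 passed an adjusted p of 0.05, where 2.87% of 10396 genes did by limma, 1.39% higher and 1.48% lower in KO. At an unadjusted p under 0.05 limma counted 3 of 5, where 20.9% of all genes were. Tfap2d and Ebf2 averaged lower in KO and Ebf3 higher.

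Tfap2d read 4.93 and 6.27 on KO replicates 1 and 2, against 8.10 and 7.05 on WT replicates 1 and 2. On chip 2 it read 4.83 and 4.81 on KO replicates 3 and 4, against 4.97 and 6.38 on WT replicates 3 and 4. Both KO arrays lay below both WT arrays on each chip, where 9.74% of all genes did. It was detected on 1 of 4 KO arrays and 3 of 4 WT arrays, so its level in KO is close to background. The difference was -1.42 (SE 0.42, n = 4 per genotype, limma adjusted p = 0.108, unadjusted p = 0.00768), with -1.98 on chip 1 and -0.85 on chip 2.

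Ebf2 read 5.01 and 5.64 on KO replicates 1 and 2, against 7.13 and 6.80 on WT replicates 1 and 2, without overlap on chip 1. On chip 2 it read 6.94 and 5.93 on KO replicates 3 and 4, against 6.37 and 8.34 on WT replicates 3 and 4, and the genotypes overlapped. The difference was -1.28 (SE 0.42, n = 4 per genotype, limma adjusted p = 0.130). It passed the threshold in 1 setting, without WT replicate 3, where the difference was -1.75 and the limma adjusted p was 0.0348. The Ebf2 probe on chip 2 only read 6.69 and 6.14 on KO replicates 3 and 4, against 6.21 and 8.61 on WT replicates 3 and 4, the same order as its partner.

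Ebf3 lay the other way. Its probe 1 read 11.50 and 11.28 on KO replicates 1 and 2, against 10.65 and 11.27 on WT replicates 1 and 2. On chip 2 it read 13.93 and 13.77 on KO replicates 3 and 4, against 12.16 and 13.02 on WT replicates 3 and 4. Both KO arrays lay above both WT arrays on each chip, on chip 1 by less than 0.01 between KO replicate 2 and WT replicate 2, where 10.3% of all genes did so. The difference was 0.84 (SE 0.26, n = 4 per genotype, limma adjusted p = 0.114).

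Probe 2 of Ebf3 showed the wider gap. It read 8.46 and 8.65 on KO replicates 1 and 2, against 8.30 and 7.94 on WT replicates 1 and 2. On chip 2 it read 10.999 and 11.20 on KO replicates 3 and 4, against 9.20 and 9.31 on WT replicates 3 and 4. With each probe tested on its own over both chips the difference was 1.14 (SE 0.27, n = 4 per genotype, limma adjusted p = 0.063).

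On chip 2 alone, 7 member probes were tested and 1 passed, where 0.524% of 21369 probes did, 0.0983% higher and 0.426% lower in KO. That was probe 2 of Ebf3, higher in KO by 1.84 (SE 0.29, n = 2 per genotype, limma adjusted p = 0.0458). Probe 1 of Ebf3 stood at 1.26 on that chip (SE 0.36, limma adjusted p = 0.146). The call for probe 2 was lost without KO replicate 3, KO replicate 4 or WT replicate 4, at limma adjusted p = 0.237, 0.060 and 0.0551, and when the set-aside replicate 5 of each genotype was added, at 0.096, and with no filter on detection, at 0.212. The call held without background correction, in the deposited log2 values and with replicate number as a block, at limma adjusted p = 0.0332, 0.00667 and 0.000511. Without WT replicate 3, which leaves 1 WT array, the difference was 1.79. The sign was positive each time.

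**Figure D5:**
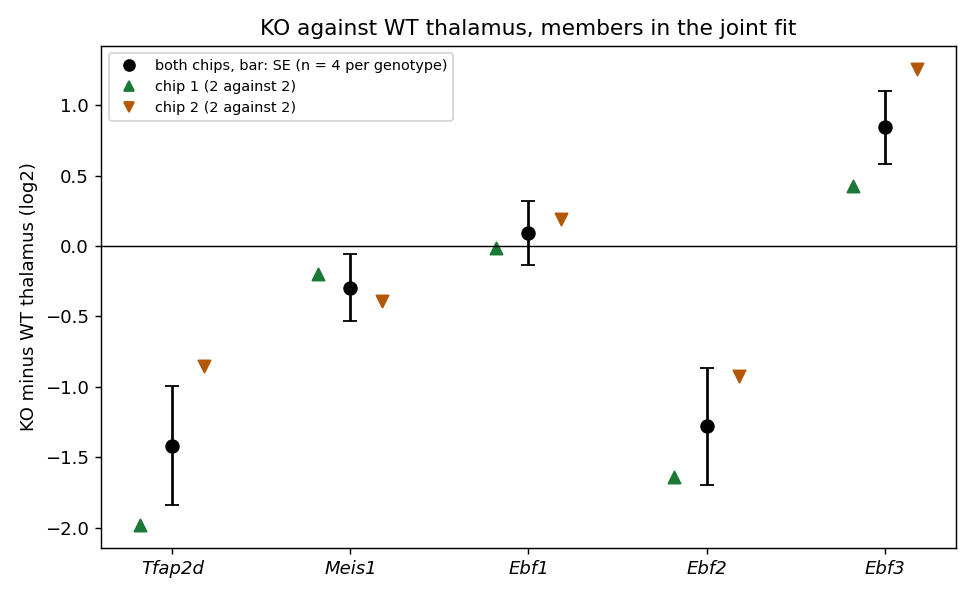
KO minus WT thalamus difference in log2 for the 5 members in the joint comparison, with circles and bars for the estimate over both chips and its SE and triangles for each chip's own difference of 2 KO against 2 WT arrays. Tfap2d and Ebf2 are below zero and Ebf3 above it on both chips, and Ebf1 has one triangle on either side of zero.

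Meis1 and Ebf1 gave small differences. Meis1 read 8.06 and 8.17 on KO replicates 3 and 4, against 8.73 and 8.28 on WT replicates 3 and 4. On chip 1, where it was at the edge of detection, it read 5.43 and 5.62 on KO replicates 1 and 2, against 6.27 and 5.17 on WT replicates 1 and 2. The difference was -0.29 (SE 0.24, n = 4 per genotype, limma adjusted p = 0.514).

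Ebf1 read 9.84, 9.96, 9.52 and 10.52 on KO replicates 1 to 4, against 10.09, 9.74, 9.61 and 10.04 on WT replicates 1 to 4, with overlap on both chips. Its difference was 0.09 (SE 0.23, n = 4 per genotype, limma adjusted p = 0.854), and its sign changed with the arrays used. A test of whether the genotype difference itself differed between chips, with 2 arrays per genotype on each, called 0 of 10396 genes (limma adjusted p between 0.86 and 0.951 for the 5 members). It does not show that the chips gave the same difference.

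Bhlhe23 and Bhlhe22 were detected on none of the 4 KO arrays and on WT replicates 1 and 4 only, too few arrays to enter the test. Bhlhe23 read 4.67, 4.84, 5.28 and 5.13 on KO replicates 1 to 4, against 7.63, 5.53, 5.16 and 6.64 on WT replicates 1 to 4. With the undetected WT replicates 2 and 3 taken as measured, the WT mean was 1.5-fold above the bound for KO. That value is not a lower limit, and no test was run. Bhlhe22 read 5.02, 4.88, 4.72 and 4.97 on KO replicates 1 to 4, against 6.01, 5.05, 4.84 and 6.61 on WT replicates 1 to 4. On chip 2 the undetected WT replicate 3 lay between both KO arrays for each gene. For Bhlhe22 the mean WT signal did not exceed the bound for KO (ratio 0.979), so no fold is given.

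The spread between WT thalamus arrays was wide for these genes. WT replicates 1 and 2 differed by 1 or more for Tfap2d, Meis1 and Bhlhe23, at 1.05, 1.099 and 2.10, where 5.91% of 13676 genes did. WT replicates 3 and 4 differed by 1 or more for Tfap2d, Ebf2, Bhlhe23 and Bhlhe22, at 1.41, 1.97, 1.49 and 1.77, where 4.7% did. For those 4 genes the higher array was WT replicate 4, and on chip 1 it was WT replicate 1. Counted as genes detected of 10, KO replicates 1 to 4 had 2, 5, 4 and 4, against 7, 4, 4 and 7 on WT replicates 1 to 4.

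Profiles over arrays, each taken relative to its chip, are given as a description. Over 10 arrays, which share 2 chips and include both regions, Tfap2d and Ebf2 had a Pearson r of 0.95. Over the 8 thalamus arrays it was 0.91. Ebf1 and Ebf3 had 0.86 over 10 arrays and 0.22 over the 8 thalamus arrays. Among genes tested, those most like Tfap2d over 10 arrays were Ebf2 (0.95) and Lrrn3 (0.94), those most like Ebf2 were Tfap2d (0.95) and Mark3 (0.95), and those most like Ebf3 were Kirrel (0.94) and Prkcd (0.94). For Meis1 they were Ccm2 (0.98) and Smoc1 (0.94), and for Ebf1 A730040I05Rik (0.97) and Fzd10os (0.96).

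The partner lists gave 1 call between genotypes, where 2.87% of 10396 genes were called. It was Kctd1, which fell by 0.98 in KO (SE 0.21, n = 4 per genotype, limma adjusted p = 0.0413), the 1 gene called of 3 measured in the AP-2 list. This call is not read as a result about the lists. Of 8 other TALE genes, 3 Ebf relatives and partners and 6 other pretectal and midbrain factors measured, none passed. The 6 had a median difference of -0.81, against -0.02 over all genes, and 2 of them had positive differences. Gata3 stood at -1.22 (SE 0.67, limma adjusted p = 0.334). On KO replicates 1 and 2 it read 5.83 and 5.73, between WT replicates 1 and 2 at 5.18 and 8.56. With WT arrays so uneven, the median is not read as a drop of these factors in KO. Otx2, a homeobox gene of forebrain and midbrain, stood at 0.64 (SE 0.27, limma adjusted p = 0.219). Bmp7 and Wnt3a, the 2 signals measured, stood at 0.89 and -0.01 with limma adjusted p = 0.17 and 0.987. The call for Kctd1 was lost in each of the 8 settings that left out 1 array, at limma adjusted p between 0.0508 and 0.139.

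Cell cycle genes moved with genotype beside these values. Of 8 such genes measured, 4 rose in KO, where 1.39% of 10396 genes did, and 0 fell by the same test. All 8 had positive differences, as did 4962 of the 10396 genes. Their mean log2 level was 9.72, 9.68, 12.48 and 11.77 on KO replicates 1 to 4, against 9.28, 8.38, 10.83 and 10.91 on WT replicates 1 to 4. Of 3 roof plate and midline genes measured, 1 rose in KO, where 1.39% of all genes did. It was the Wnt enhancer Rspo1, by 1.42 (SE 0.22, n = 4 per genotype, limma adjusted p = 0.0163). That list's mean level was 5.40, 5.37, 6.76 and 6.76 on KO replicates 1 to 4, against 4.94, 4.88, 6.19 and 5.52 on WT replicates 1 to 4. Of 6 caudal thalamic genes measured, 3 fell in KO (Gbx2, Ntng1 and Rora), where 1.48% of all genes did. The part of these lists in the members' values was not tested.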

How the data were processed

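Groups and replicates came from the labels. Per the file headers, GenomeStudio 1.1.1 exported the deposited tables of bead intensity, not normalized, and of detection, a fraction from 0 to 1 that lies near 1 for bright probes; 1 minus it was taken as the detection p. The deposited normalized tables hold log2 values by a method not given in the sources used here, and served as an alternative. Per the labels, RNA was amplified to biotinylated cRNA.

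The intensities were processed within each chip by neqc of limma 3.58.1 (R 4.3.3; normexp background by detection p, offset 16, quantile normalization, log2). Chips were joined over 31448 probes matched by signal. The deposited joined table holds 31459 probes. The 31448 used were named by accession (19533), symbol (2793), synonym (2314) or as in the file (6808), through a RefSeq table of GRCm38.p6. The probe with the highest mean represented a gene of several. KO and WT were compared with lmFit and eBayes, two-sided, chip as block, Benjamini-Hochberg adjustment over all genes tested. For regions, a gene needed detection on at least 1 array of chip 1, and counted at a log2 difference of 1 against both WT arrays. For an undetected group, folds are bounds where every array of the other group was detected. They were taken against the lowest signal detected on each array, or against the gene's own signal where that was higher. Same-numbered KO and WT arrays correlated at -0.11 on chip 1 and 0.12 on chip 2. With 2 arrays per genotype on each chip, this cannot decide whether numbers pair arrays. Replicate number entered as a block only in an alternative.

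The members and lists were chosen with earlier results of these data known. Named genes are all members, those of their family lists past a threshold or with the smallest p, and for each member the 2 genes most alike. On simulated data of 10396 genes, 56 of 100 genes changed 2-fold and 97 of 100 changed 4-fold were recovered, with 6 false calls. The alternatives were other normalizations, filters, probes, blocks and arrays left out.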

Additional observations from a re-analysis of the deposited data

Results flagged for a closer look

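After removal of each chip's mean over KO and WT arrays, Tfap2d on KO replicate 1 lay apart from the other 3 KO arrays. The gap was 0.9142 of the group's range, above Dixon's critical value for a group of 4. Its signal there, 4.93, was not detected, like those of 4.83 and 4.81 on KO replicates 3 and 4. Only KO replicate 2, at 6.27, was detected. The chip means include the WT arrays, so the 4 values are not like draws and the critical value is a guide only. This was 1 of 14 groups examined, and for like draws chance gives about 1 in 20.

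The arrays set aside by the submitters held member signals above both kept WT arrays of chip 2. On KO replicate 5, Ebf3 exceeded the higher WT array by 1.2885 (probe 1) and 1.5699 (probe 2), and probe 1 of Ebf1 by 0.6048. Ebf3 probe 1 read 14.28 there, against 12.99 on the higher WT array, in values normalized over all 6 arrays of chip 2. On WT replicate 5, probe 1 of Tfap2b was detected at 6.57, above the other WT arrays by 0.8628. Of all 45281 probes, 2.29% on KO replicate 5 and 7.61% on WT replicate 5 were detected and at least 0.5 above the kept WT arrays.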

How the results depend on the processing

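The count of 0 members past the threshold held in all settings but one, where it was 1 (without WT replicate 3), so leaving out 1 array gave 0 to 1. The partner count of 1 (Kctd1) became 0 without background correction, without a filter, with replicate 5, on chip 1 alone, on chip 2 alone and whenever 1 array was left out (0 to 0). With replicate number as a block, members past the threshold stayed 0 and partners 1, while genes called were 363 against 298. The chip 2 count of 1 became 2 with that block, 0 without a filter and 0 with replicate 5, and 0 to 3 with 1 array left out (3 without WT replicate 3). Ebf1 changed sign to -0.0109 on chip 1 alone, and ranged from -0.13 (without KO replicate 4) to 0.27 with 1 array left out, with -0.01 without WT replicate 3.

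Over the settings in which each gene was tested (15 for Tfap2d, 17 for Ebf2 and for Ebf3), Tfap2d lay between -1.98 and -0.73, Ebf2 between -1.75 and -0.63 and Ebf3 between 0.43 and 1.26. Genes called in all numbered 190 without background correction, 591 in the deposited values, 84 without a filter, 15 with replicate 5, 0 on chip 1 alone, 112 on chip 2 alone and 63 to 612 with 1 array left out. On chip 2 alone, probes called were 112 in the main setting, 61 without background correction, 216 in the deposited values, 2341 with the block, 0 without a filter, 4 with replicate 5 and 0 to 689 with 1 array left out. Members higher on the epithalamus array numbered 6 without background correction (Pax3 and Bhlhe22 lost) and 7 in the deposited values (Pax3 lost), against 8. The cause of these moves was not tested. Signal over background sets a limit for Tfap2b, Pax3 and Pax7, detected on no thalamus array compared, and for Bhlhe22 and Bhlhe23, detected on no KO array.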
